A study of Mus musculus with 1 sample.

Results

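The mitosis and G2/M genes are 40 genes named by symbol, chosen for their known parts in the passage from G2 through cell division, and they were looked up among the 27998 genes listed in the deposited table, of which 18722 had a UMI (a unique molecular identifier, which counts each captured transcript molecule as 1). All 40 were found, and each had at least 100 UMIs over the 6 cell classes described here. They fall into 7 groups by role: cyclins with their kinase, mitotic kinases and checkpoint proteins, partners of the anaphase-promoting complex, centromere proteins, spindle proteins, cytokinesis proteins and proteins of chromosome structure.

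Cells that approach division raise the transcripts of these genes in G2 and clear many of the proteins as they leave mitosis. CDK1 with cyclin A or B drives entry into mitosis, the Aurora and Polo kinases and the kinetochore attach chromosomes to the spindle, and the anaphase-promoting complex ends mitosis by marking cyclin B for destruction. In the testis of a young mouse spermatogonia divide, and Sertoli cells, the somatic cells that line the seminiferous tubules, go on dividing for the first weeks after birth.

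The counts came from 1 wild type library of C57BL/6 testis cells at postnatal day 8, in which equal numbers of cells from 3 mice had been pooled. Spermatogonia were enriched with magnetic beads against THY1, a surface protein, and some unselected testis cells were added back, so the numbers of each cell type follow from this mixture. No replicate library and no other genotype was analysed here, so no test was made. Each interval below is an exact 95% interval that covers counting error only, and cells are not replicates.

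Of 970 barcodes, 920 were kept as cells and clustered on genes other than the 40 and other than further cell cycle genes on fixed lists. Genes outside these lists that varied with the 40, such as Ube2s, were not excluded. The classes may therefore depend in part on the cell cycle, which was not tested. The germ cells comprised 89 cells like spermatogonial stem cells (SSC-like), 88 progenitor-like cells and 86 differentiating-like cells, 263 in all. Somatic classes were 255 Sertoli-like, 185 stromal-like and 95 myoid-like cells. The clusters were named from fixed lists of markers, so the marker levels describe the classes and are no check of the names. Germ cell markers summed to 1141 to 1482 CPM (UMIs per 1000000 UMIs of the class) in the germ stages and 22.5 to 33.1 CPM in the 3 somatic classes. SSC markers stood at 263, 40.5 and 11.99 CPM in the SSC-like, progenitor-like and differentiating-like stages, progenitor markers at 365, 734 and 282 CPM and differentiating markers at 632, 1194 and 2276 CPM. Progenitor markers, some of which are not limited to germ cells, also stood at 509 CPM in Sertoli-like cells. A cluster of 61 cells with a median of 3769 UMIs had germ cell markers at 1537 CPM but was led by a hemoglobin gene, and it was left unnamed and outside the germ stages. Of its 7374 UMIs of red blood cell markers, 7352 came from 1 barcode. When that barcode was left out before clustering, the other 60 cells were placed among germ cells, which then numbered 323. The germ values below are those of the 263 cells without this cluster.

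Cells held a median of 22104 UMIs in SSC-like cells, 20070.5 in progenitor-like cells and 17410.5 in differentiating-like cells, and of 8343, 8370 and 7476 in Sertoli-like, stromal-like and myoid-like cells. For shares of cells, each cell was therefore thinned to 5000 UMIs.

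Promoters of the 40 genes were read from RefSeq (GRCm38.p6, the assembly called mm10), as 300 bases from 250 before to 50 after each start, and 36 of the 40 matched by symbol. Ccna2, Aurkb, Tpx2 and Smc4 had no entry. The letters TTTGAA, known as the CHR, are a site of the complexes that restrict such genes to G2 and M, and CCAAT is the site of NF-Y. Both were searched on both strands with overlaps allowed. TTTGAA occurred in 27 of 36 promoters of the 40 genes (75%), against 18.1% of all 27025 promoters and 16.5% of those of protein-coding genes. CCAAT occurred in 27 of 36 (75%) against 37.9% of all, and both together in 23 of 36 (63.9%) against 7.12% of all. Within the 100 bases around the start, TTTGAA began in 23 of 36 against 4.92% of all. Among S phase genes on a fixed list, TTTGAA was found in 5 of 38 and CCAAT in 23 of 38. A match is a description of the letters and not evidence of binding.

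Promoters of 6 of the genes are printed from 200 bases before to 30 after the start, with TTTGAA and CCAAT in either direction in capitals. Cdk1, Ccnb2, Hmmr and Ube2c are shown because they made up a larger part of the summed level in high Sertoli-like cells (defined below) than in high germ cells, and Ccnb1 because it made up a smaller part. Cks1b is shown because it differed least between cells high and low in the other genes, in pooled germ cells and in Sertoli-like cells. In GRCm38.p6 the windows are chr10:69352883-69353112 on the minus strand, chr9:70421525-70421754 on the minus strand, chr11:40733408-40733637 on the minus strand, chr2:164769729-164769958 on the plus strand, chr13:100786457-100786686 on the minus strand and chr3:89418262-89418491 on the minus strand.
Cdk1: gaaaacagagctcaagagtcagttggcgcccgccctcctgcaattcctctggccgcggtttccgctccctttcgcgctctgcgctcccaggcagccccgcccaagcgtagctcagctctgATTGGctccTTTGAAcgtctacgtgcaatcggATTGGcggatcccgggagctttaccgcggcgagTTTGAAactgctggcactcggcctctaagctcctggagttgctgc
Ccnb2: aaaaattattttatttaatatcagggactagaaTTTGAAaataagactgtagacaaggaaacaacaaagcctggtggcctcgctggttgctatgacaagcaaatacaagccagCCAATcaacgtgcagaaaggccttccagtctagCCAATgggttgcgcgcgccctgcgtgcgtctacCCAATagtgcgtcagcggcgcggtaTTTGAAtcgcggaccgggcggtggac
Hmmr: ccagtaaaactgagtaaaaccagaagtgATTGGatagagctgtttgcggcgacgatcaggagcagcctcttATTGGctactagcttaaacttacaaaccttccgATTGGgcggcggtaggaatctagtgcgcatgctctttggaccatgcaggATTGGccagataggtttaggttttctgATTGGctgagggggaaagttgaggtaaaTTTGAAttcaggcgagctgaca
Ube2c: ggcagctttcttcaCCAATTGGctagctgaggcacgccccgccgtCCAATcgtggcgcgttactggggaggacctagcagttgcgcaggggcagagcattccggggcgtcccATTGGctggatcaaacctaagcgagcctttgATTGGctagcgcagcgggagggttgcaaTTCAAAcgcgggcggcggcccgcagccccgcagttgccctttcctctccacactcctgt
Ccnb1: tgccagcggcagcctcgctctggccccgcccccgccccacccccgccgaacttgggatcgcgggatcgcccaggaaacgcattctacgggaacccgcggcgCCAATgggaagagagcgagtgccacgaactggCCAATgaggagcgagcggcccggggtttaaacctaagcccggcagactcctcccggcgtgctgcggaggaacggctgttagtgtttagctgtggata
Cks1b: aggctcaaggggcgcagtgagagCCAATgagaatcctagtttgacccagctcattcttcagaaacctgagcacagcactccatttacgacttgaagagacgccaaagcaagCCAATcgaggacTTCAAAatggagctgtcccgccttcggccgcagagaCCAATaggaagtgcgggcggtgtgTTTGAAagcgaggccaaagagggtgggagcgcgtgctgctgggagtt

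Counted from the start, where 1 is the leading base of the transcript and -1 the base before it, TTTGAA nearest to the start began at -15 in Cdk1, at -17 in Cks1b, at 5 in Ccnb2 and at 9 in Hmmr. Ube2c carried it in the opposite direction, beginning at -29. The Ccnb1 window held CCAAT at 2 places and no TTTGAA.

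The summed level of the 40 genes was highest in differentiating-like and SSC-like cells and lowest in stromal-like cells. It was 5866 CPM (interval 5759 to 5974) in SSC-like cells, 3588 CPM (3501 to 3677) in progenitor-like cells and 6316 CPM (6189.6 to 6444) in differentiating-like cells. In Sertoli-like, stromal-like and myoid-like cells it was 2836 (2768 to 2906), 1548 (1488 to 1609) and 1812 CPM (1717 to 1910.3). At these class boundaries no interval of a germ stage overlapped that of a somatic class. The order depended on the boundaries. With the hemoglobin-rich barcode left out before clustering, progenitor-like cells stood at 2535 CPM, below the 2836 CPM of Sertoli-like cells given here.

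The sums hid a difference in how the level was spread over cells. In single germ cells the 40 genes took a median of 0.469% of UMIs in SSC-like cells, 0.286% in progenitor-like cells and 0.581% in differentiating-like cells. In Sertoli-like, stromal-like and myoid-like cells the medians were 0.0815%, 0.0507% and 0.0504%. The lowest germ cell stood at 0.109%, and 0 of 263 germ cells lay under 0.1%, which allows a share of up to 1.14% of cells. With the hemoglobin-rich barcode left out and the 60 cells of the unnamed cluster counted among germ cells, 1 of 323 lay under it, at 0.0701%. Under 0.1% lay 156 of 255 Sertoli-like cells (61.2%), 155 of 185 stromal-like (83.8%) and 82 of 95 myoid-like cells (86.3%). The highest single cells of the 3 germ stages stood at 1.59%, 1.08% and 1.33%. Those of Sertoli-like, stromal-like and myoid-like cells stood higher, at 1.84%, 1.86% and 1.92%. Each maximum is 1 cell, and the classes differ in size and depth. The 90th percentiles did not follow the maxima, at 0.960%, 0.677% and 0.948% in the germ stages. They were 0.853%, 0.152% and 0.302% in the somatic classes, in the same order. At 1% or more lay 6 SSC-like (6.74%), 1 progenitor-like (1.14%), 6 differentiating-like (6.98%), 22 Sertoli-like (8.63%), 9 stromal-like (4.86%) and 4 myoid-like cells (4.21%).

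**Figure D1:**
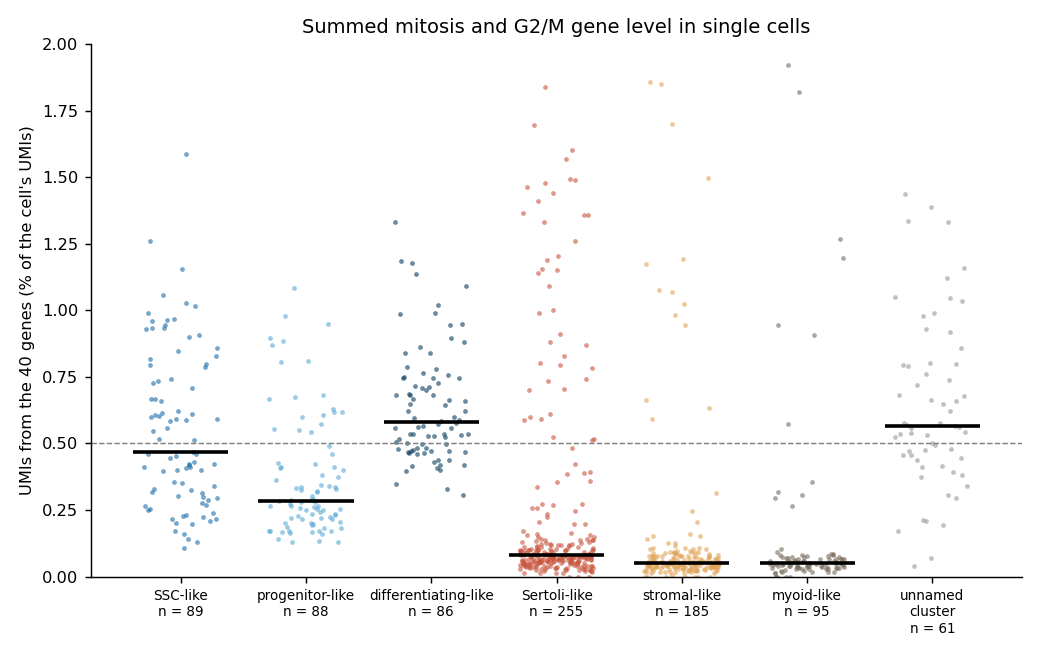
UMIs from the 40 mitosis and G2/M genes as a percent of all UMIs of each cell (vertical axis) by cell class (horizontal axis). Each point is 1 cell, the black bar is the class median and the dashed line marks 0.5%; germ cells form broad clouds with medians from 0.286% to 0.581%, while most somatic cells lie near their medians of 0.0504% to 0.0815% and a few reach above 1%.

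A cell was called high when at least 25 of its 5000 UMIs after thinning (0.5%) came from the 40 genes. By this limit 43 of 87 SSC-like cells were high (49.4%, interval 38.5 to 60.4), 21 of 87 progenitor-like cells (24.1%, 15.6 to 34.5) and 58 of 84 differentiating-like cells (69.05%, 58.02 to 78.7). Among somatic cells, 41 of 235 Sertoli-like cells (17.4%, 12.8 to 22.9), 14 of 171 stromal-like (8.19%, 4.55 to 13.4) and 7 of 91 myoid-like cells (7.69%, 3.15 to 15.2) were high. The thinning left out 2, 1, 2, 20, 14 and 4 shallower cells in the same order. Without thinning the shares were 49.4, 22.7, 69.8, 16.1, 7.57 and 7.37%. With Hmgb2, the gene with most UMIs, left out of the sum at the same limit, they were 37.9, 17.2, 41.7, 16.6, 8.19 and 7.69%. Differentiating-like and SSC-like cells thus lay much closer without this gene.

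In germ cells the limit cut through a continuous range, since 89 of 263 cells lay between 0.4 and 0.625%. In Sertoli-like cells 9 of 255 lay there, and in stromal-like and myoid-like cells 1 each. A limit of 10 of 5000 UMIs called 89.7% of SSC-like cells, 80.5% of progenitor-like cells and 100% of differentiating-like cells high, against 22.1%, 8.77% and 13.2% of Sertoli-like, stromal-like and myoid-like cells. A limit of 50 called 11.5%, 3.45% and 8.33% of the germ stages and 8.94%, 5.26% and 4.40% of the somatic classes, so the order of the classes depended on the limit.

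Most of the somatic signal sat in few cells. The high cells held 19.9% of the UMIs of Sertoli-like cells but 73.5% of those of the 40 genes, and the corresponding values were 9.53% and 67.7% in stromal-like and 9.73% and 65.7% in myoid-like cells. High germ cells held 47.7% of all UMIs and 68.8% of those of the 40 genes. The level within high cells was 10483, 10999.9 and 12232 CPM in Sertoli-like, stromal-like and myoid-like cells, above 8034, 7087 and 7146 CPM in the SSC-like, progenitor-like and differentiating-like stages. In the cells under the limit it was 939, 552 and 689 CPM in the somatic classes, against 3220.3, 2618 and 4433 CPM in the germ stages. These values follow in part from the limit itself and are given as a description.

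The Sertoli-like cells came from clusters of 131, 83 and 41 cells, with 1, 6 and 34 high cells before thinning. Their summed levels were 929, 1882 and 10055 CPM. The 10 leading genes of the smallest cluster included Cdc25b and Psrc1, which are on the list of further G2 and mitosis genes, so its level is no independent finding. The differentiating-like cells came from clusters of 49 and 37 cells at 5811 and 7358 CPM. The unnamed cluster stood at 6203 CPM (interval 5926 to 6489.9), with a median of 0.565% per cell, and at 6446 CPM over its other 60 cells without the hemoglobin-rich barcode. The differentiating-like median was 0.581%.

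A limit of 5% on mitochondrial UMIs in place of 10% moved the somatic shares of high cells to 29.5% in Sertoli-like, 1.72% in stromal-like and 17.1% in myoid-like cells, and left 67 germ cells that were not split into stages. Of these 67 germ cells, 49 came from the cluster of 61 cells left unnamed above, so few of the 263 germ cells remained. The somatic class boundaries under that limit also moved, with 54, 62 and 131 cells in the Sertoli-like, stromal-like and myoid-like classes. A further 105 cells, which scored highest for stromal markers, held the hemoglobin-rich barcode, were led by a hemoglobin gene and were left unnamed, so the stromal-like value under that limit rests on the other 62 cells.

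Between the germ stages, the 40 genes were lower in progenitor-like cells. Their summed level was at a log2 ratio of -0.71 (interval -0.75 to -0.66) to SSC-like cells, and differentiating-like cells were at 0.82 (interval 0.77 to 0.86) to progenitor-like and 0.11 (interval 0.07 to 0.15) to SSC-like cells. Each of the 40 was below 0 in the ratio of progenitor-like to SSC-like cells, with a median of -0.70 against -0.06 over all 6913 genes with at least 50 UMIs in the pair. In 33 of them the interval lay below 0. Ratios and intervals below 0 were not counted over all genes, so these counts have no background. The median over all genes was itself below 0, and such intervals narrow as UMIs increase. At least 2-fold lower were 12 of 40 (30%), against 3.43% of all genes, and 0 of 40 were at least 2-fold higher, against 1.42%.

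From progenitor-like to differentiating-like cells, 18 of the 39 genes with enough UMIs were at least 2-fold higher (46.2%, background 8.45%) and 0 at least 2-fold lower (background 5.14%), with a median log2 ratio of 0.89 against 0.18 over all genes. Between differentiating-like and SSC-like cells 0 of 40 passed 2-fold either way, where 6.88% of all genes were at least 2-fold higher and 6.02% lower. The median there was 0.14 against 0.11 over all genes. The 3 ratios share cells, so the ratios to progenitor-like cells are not independent of each other.

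The size of the progenitor-like value depended on where the clustering drew its boundary. Leaving out the hemoglobin-rich barcode of the unnamed cluster gave 65 progenitor-like cells, at 2535 CPM against 5895 CPM in SSC-like cells, and 24 of 40 genes at least 2-fold lower, against 4.43% of all genes. Of the 59 of these cells with at least 5000 UMIs, 2 were high (3.39%). Under the same alternative 17.4, 8.19 and 7.69% of Sertoli-like, stromal-like and myoid-like cells were high. With all variable genes allowed, the 40 included, the cluster with progenitor markers was led by 2 hemoglobin genes and was left unnamed. A finer clustering of the germ cells gave 115 progenitor-like cells at 4563 CPM. There 0 of 40 genes were at least 2-fold lower, against 2.04% of all genes, and 30 were below 0, which was not counted over all genes. Of the 114 of these cells with at least 5000 UMIs, 39 were high (34.2%). The 115 cells came from clusters of 68 and 47 cells, scored by the mean difference in log marker level to the other germ cells. The 68 scored 0.108 for progenitor and 0.011 for SSC markers, and none of their 10 leading genes was a progenitor marker. The 47 were led by Neurog3 and scored 0.308 for progenitor markers, so the name is weak for the larger cluster. The log2 ratio of progenitor-like to SSC-like cells ran from -1.22 to -0.21 over the 9 alternatives that gave it. Among these, the alternatives without the hemoglobin-rich barcode and with at least 1000 genes kept the same 919 cells.

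Against all germ stages together, the summed level was at a log2 ratio of -0.88 (interval -0.92 to -0.84) in Sertoli-like, -1.75 (interval -1.81 to -1.69) in stromal-like and -1.52 (interval -1.60 to -1.45) in myoid-like cells. In Sertoli-like cells 17 of 40 genes were at least 2-fold lower (42.5%, background 25.1%) and 0 at least 2-fold higher (background 22.3%). At least 2-fold lower were 34 of 40 in stromal-like (85.0%, background 36.6%) and 34 of 40 in myoid-like cells (85.0%, background 41.6%), with 0 at least 2-fold higher in either (background 17.1% and 13.5%). The median log2 ratios were -0.86, -1.86 and -1.73, against -0.10, -0.54 and -0.70 over all genes tested. The germ cells are the denominator of all 3 ratios.

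**Figure D2:**
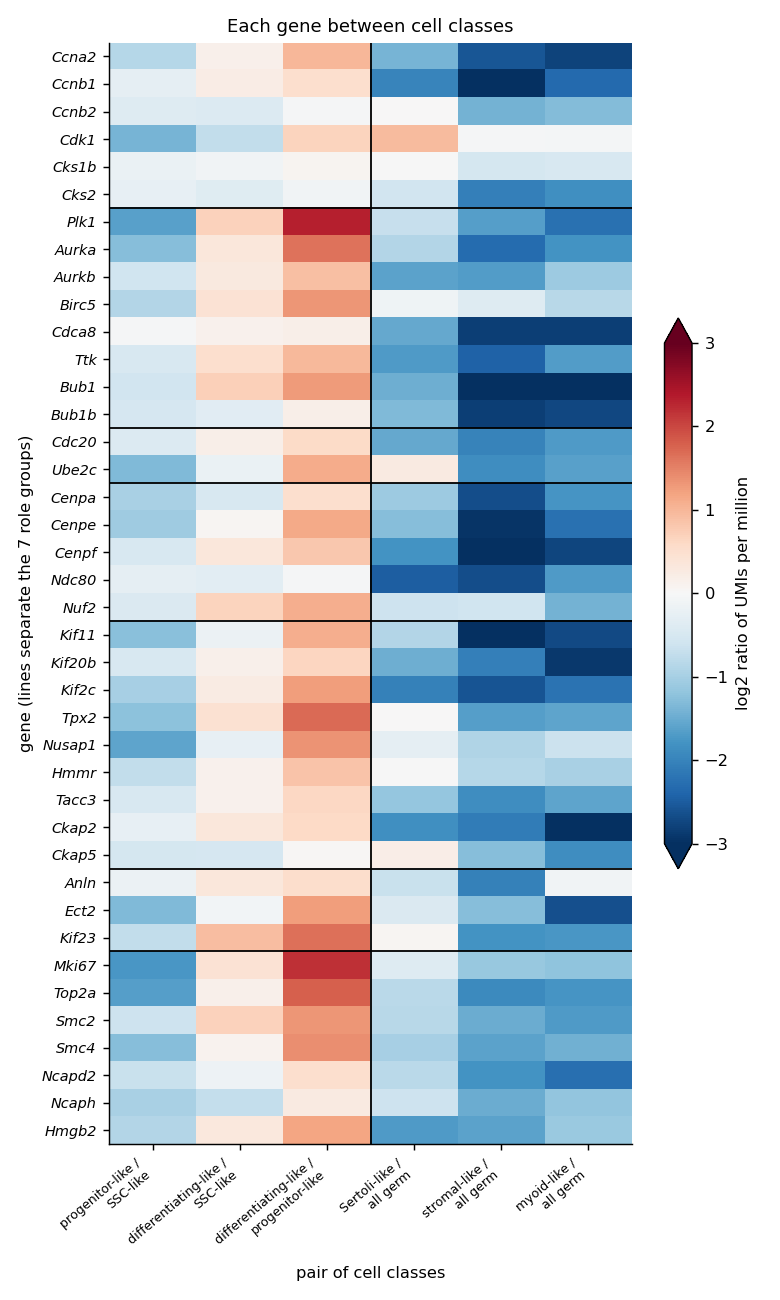
Log2 ratio of the level in CPM (colour, blue below 0 and red above) for each of the 40 genes (rows, in their 7 role groups) in 6 pairs of cell classes (columns). The column of progenitor-like over SSC-like cells is blue throughout, and among the somatic columns Cdk1 in Sertoli-like cells, at 0.95, is the gene farthest above 0.

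The cyclin and CDK1 group, with 6 genes, summed to 1264 CPM in SSC-like cells, 986 in progenitor-like cells and 1109 in differentiating-like cells, and 862, 432 and 464 in Sertoli-like, stromal-like and myoid-like cells. Cdk1, the kinase that drives entry into mitosis, stood at 77.4 CPM in SSC-like cells, 29.4 in progenitor-like cells and 46.6 in differentiating-like cells, against 101 in Sertoli-like, 50.98 in stromal-like and 50.4 in myoid-like cells. Its ratio of Sertoli-like to germ cells was 0.95 (interval 0.70 to 1.21) on the log2 scale, so the level was nearly 2-fold higher although fewer Sertoli-like cells were high. In stromal-like and myoid-like cells its log2 ratio to germ cells was -0.03 and -0.05, where most of the genes were far below 0.

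The cyclin genes had other patterns. Ccnb1, which encodes cyclin B1, stood at 121 CPM in SSC-like cells, 99.97 in progenitor-like cells and 141 in differentiating-like cells, against 30.1 in Sertoli-like, 13.5 in stromal-like and 23.9 in myoid-like cells, and its ratio of Sertoli-like to germ cells was -1.99 (interval -2.37 to -1.63). Ccnb2, which encodes cyclin B2, stood at 116 CPM in SSC-like cells, 88.9 in progenitor-like cells and 87.2 in differentiating-like cells, against 99.3 in Sertoli-like, 36.9 in stromal-like and 39.8 in myoid-like cells, with a ratio of Sertoli-like to germ cells of 0.01 (interval -0.22 to 0.24). The 2 genes for B-type cyclins therefore differed between the classes, Ccnb1 being lower in Sertoli-like cells and Ccnb2 at a like level. Ccna2, which encodes cyclin A2, resembled Ccnb1, with 146 CPM in SSC-like cells, 80.5 in progenitor-like cells and 161 in differentiating-like cells, against 48.4 in Sertoli-like, 21.5 in stromal-like and 18.6 in myoid-like cells. In the unnamed cluster Ccnb1 reached 373 (interval 307 to 448) CPM, against 141 (interval 123 to 162) CPM in differentiating-like cells, while Ccnb2 was at 106 CPM.

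Cks1b and Cks2 encode small subunits that bind cyclin-dependent kinases. Cks1b was the most even of the 40, at 313 CPM in SSC-like cells, 273 in progenitor-like cells and 289.7 in differentiating-like cells, and at 291 in Sertoli-like, 205 in stromal-like and 211 in myoid-like cells. Cks2 was less even, at 492 CPM in SSC-like cells, 414 in progenitor-like cells and 383 in differentiating-like cells, and at 292 in Sertoli-like, 104 in stromal-like and 121 in myoid-like cells. The ratio of stromal-like to germ cells was -0.52 (interval -0.69 to -0.34) for Cks1b and -2.06 (interval -2.29 to -1.83) for Cks2.

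The mitotic kinases, checkpoint proteins and chromosomal passengers, 8 genes, summed to 563 CPM in SSC-like cells, 402 in progenitor-like cells and 692 in differentiating-like cells, and 267, 162 and 153 in Sertoli-like, stromal-like and myoid-like cells. Plk1, the Polo kinase that acts in mitotic entry and spindle assembly, differed widely between germ stages, with 32.8 CPM in SSC-like cells, 10.6 in progenitor-like cells and 53.3 in differentiating-like cells. Its log2 ratio was -1.64 (interval -2.46 to -0.88) for progenitor-like over SSC-like and 2.34 (interval 1.60 to 3.14) for differentiating-like over progenitor-like cells. Aurka, the Aurora kinase of the centrosome and spindle poles, stood at 42.1 CPM in SSC-like cells, 17.2 in progenitor-like cells and 53.3 in differentiating-like cells, and at 20.04 in Sertoli-like, 7.37 in stromal-like and 10.6 in myoid-like cells.

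The chromosomal passenger complex holds Aurora B, survivin and borealin, and the genes for them differed in level between classes. Aurkb, the kinase, stood at 59.5 CPM in SSC-like cells, 39.4 in progenitor-like cells and 73.3 in differentiating-like cells, and at 18.7 in Sertoli-like, 17.8 in stromal-like and 26.5 in myoid-like cells. Birc5, which encodes survivin, stood at 114 CPM in SSC-like cells, 62.2 in progenitor-like cells and 155 in differentiating-like cells, and at 99.3 in Sertoli-like, 82.9 in stromal-like and 61.01 in myoid-like cells. Cdca8, which encodes borealin, stood at 195 CPM in SSC-like cells, 189.9 in progenitor-like cells and 214 in differentiating-like cells, and at 68.4 in Sertoli-like, 28.3 in stromal-like and 27.9 in myoid-like cells. The log2 ratio of Sertoli-like to germ cells was -1.59 (interval -2.09 to -1.13) for Aurkb, -0.12 (interval -0.35 to 0.10) for Birc5 and -1.54 (interval -1.79 to -1.30) for Cdca8. In stromal-like cells it was -1.67 (interval -2.27 to -1.11), -0.38 (interval -0.66 to -0.11) and -2.81 (interval -3.27 to -2.39), so that Birc5 was the nearest of the 3 to its germ cell level in both classes.

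Bub1, Bub1b and Ttk encode proteins of the spindle checkpoint, which delays anaphase until chromosomes are attached. Bub1 stood at 36.9 CPM in SSC-like cells, 24.99 in progenitor-like cells and 60.6 in differentiating-like cells, and at 14.4 in Sertoli-like, 3.69 in stromal-like and 3.98 in myoid-like cells, with a ratio of stromal-like to germ cells of -3.43 (interval -4.89 to -2.28). The corresponding ratio was -2.83 for Bub1b and -2.44 for Ttk. From SSC-like to differentiating-like cells Bub1 was at 0.71 (interval 0.25 to 1.18) and Bub1b at -0.34 (interval -0.82 to 0.13).

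Cdc20, the activator of the anaphase-promoting complex, and Ube2c, the ubiquitin-conjugating enzyme that works with it, differed in how Sertoli-like cells compared with pooled germ cells. Cdc20 stood at 117 CPM in SSC-like cells, 88.3 in progenitor-like cells and 133 in differentiating-like cells, against 38.8 in Sertoli-like, 27.6 in stromal-like and 34.5 in myoid-like cells, and Ube2c at 232 CPM in SSC-like cells, 93.3 in progenitor-like cells and 200.5 in differentiating-like cells, against 209.96 in Sertoli-like, 48.5 in stromal-like and 57.03 in myoid-like cells. The log2 ratio of Sertoli-like to germ cells was -1.53 (interval -1.86 to -1.20) for Cdc20 and 0.26 (interval 0.10 to 0.42) for Ube2c. The Ube2c level in Sertoli-like cells lay between those of differentiating-like and SSC-like cells. The low progenitor-like level enters the pooled germ value. Ube2c was also lower in progenitor-like than in SSC-like cells, at -1.31 (interval -1.58 to -1.05), while Cdc20 was at -0.41 (interval -0.71 to -0.11).

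The 5 centromere and kinetochore genes summed to 1096 CPM in SSC-like cells, 671 in progenitor-like cells and 1104 in differentiating-like cells, and 352, 136 and 207 in Sertoli-like, stromal-like and myoid-like cells. Cenpf, a large kinetochore protein made in G2, stood at 461 CPM in SSC-like cells, 333 in progenitor-like cells and 579 in differentiating-like cells, and at 129 in Sertoli-like, 47.3 in stromal-like and 66.3 in myoid-like cells, with a ratio of Sertoli-like to germ cells of -1.80 (interval -1.98 to -1.63). Cenpa, the histone H3 variant that marks centromeres, stood at 433 CPM in SSC-like cells, 221 in progenitor-like cells and 312 in differentiating-like cells, and at 154 in Sertoli-like, 51.6 in stromal-like and 95.5 in myoid-like cells. Cenpe, a kinesin that moves chromosomes to the spindle equator, stood at 135 CPM in SSC-like cells, 64.4 in progenitor-like cells and 141 in differentiating-like cells, and at 46.2 in Sertoli-like, 14.7 in stromal-like and 23.9 in myoid-like cells. Ndc80 and Nuf2 encode partners in the complex that binds microtubules at the kinetochore. Their ratio of Sertoli-like to germ cells was -2.47 (interval -3.31 to -1.74) for Ndc80, the lowest of the 40 in that pair, and -0.63 (interval -1.20 to -0.09) for Nuf2.

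The 9 spindle and microtubule genes summed to 516 CPM in SSC-like cells, 297 in progenitor-like cells and 546 in differentiating-like cells, and 297, 141 and 134 in Sertoli-like, stromal-like and myoid-like cells. Tpx2, which activates Aurora A on the spindle, stood at 74.4 CPM in SSC-like cells, 31.7 in progenitor-like cells and 103 in differentiating-like cells, and at 68.8 in Sertoli-like, 21.5 in stromal-like and 22.5 in myoid-like cells. Nusap1, a protein that bundles spindle microtubules, stood at 76.9 CPM in SSC-like cells, 25.5 in progenitor-like cells and 65.3 in differentiating-like cells, and at 46.6 in Sertoli-like, 30.1 in stromal-like and 35.8 in myoid-like cells, with a ratio of progenitor-like to SSC-like cells of -1.59 (interval -2.10 to -1.11). Hmmr, a spindle protein also named as a hyaluronan receptor, had a ratio of Sertoli-like to germ cells of 0.00 (interval -0.44 to 0.43). Ckap5, which speeds microtubule growth, was at 0.20 (interval -0.10 to 0.50). Of the motor proteins, Kif11 was at -0.89 (interval -1.40 to -0.40), Kif20b at -1.46 (interval -1.93 to -1.02) and Kif2c at -2.02 (interval -2.75 to -1.37) in the same pair. Tacc3, a spindle protein that acts with Ckap5, was at -1.15 and Ckap2 at -1.84. In stromal-like cells Kif11 was at -4.23 (interval -6.52 to -2.66), from 3 UMIs in that class.

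Of the 3 cytokinesis genes, Kif23, a kinesin of the central spindle, stood at 35.9 CPM in SSC-like cells, 21.7 in progenitor-like cells and 67.9 in differentiating-like cells, and at 41.8 in Sertoli-like, 11.7 in stromal-like and 11.9 in myoid-like cells. Anln, which encodes the ring protein anillin, was lower in stromal-like than in germ cells, at -2.02 (interval -3.00 to -1.17), and in myoid-like cells it was at -0.10 (interval -0.83 to 0.56). Ect2, an activator of RhoA at the division site, stood at 21.03 CPM in SSC-like cells, 8.33 in progenitor-like cells and 19.98 in differentiating-like cells, and at 12.2 in Sertoli-like, 6.76 in stromal-like and 2.65 in myoid-like cells.

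Chromosome structure held 7 genes and the largest part of the sum, at 1992 CPM in SSC-like cells, 995 in progenitor-like cells and 2407 in differentiating-like cells, and 737, 576 and 720.1 in Sertoli-like, stromal-like and myoid-like cells. Hmgb2, a chromatin protein that bends DNA, supplied the largest part of it, with 1145 CPM in SSC-like cells, 626 in progenitor-like cells and 1434 in differentiating-like cells, and 325 in Sertoli-like, 344 in stromal-like and 487 in myoid-like cells. It was at a like level in stromal-like and Sertoli-like cells and higher in myoid-like cells. Top2a, the topoisomerase that untangles replicated chromosomes, stood at 288 CPM in SSC-like cells, 91.6 in progenitor-like cells and 318 in differentiating-like cells, and at 132 in Sertoli-like, 61.4 in stromal-like and 67.6 in myoid-like cells. Mki67, which coats mitotic chromosomes and is a common marker of dividing cells, stood at 71.3 CPM in SSC-like cells, 21.1 in progenitor-like cells and 95.9 in differentiating-like cells, and at 47.05 in Sertoli-like, 27.6 in stromal-like and 26.5 in myoid-like cells. The ratio of progenitor-like to SSC-like cells was -1.65 (interval -1.91 to -1.40) for Top2a and -1.76 (interval -2.31 to -1.23) for Mki67, the lowest of the 40.

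Smc2, Smc4, Ncapd2 and Ncaph encode condensin subunits, which compact chromosomes. Smc2 and Smc4, found in both condensin complexes, were at -0.63 (interval -0.93 to -0.33) and -1.28 (interval -1.55 to -1.01) for progenitor-like over SSC-like cells. Ncapd2 and Ncaph, subunits of condensin I, were at -0.67 (interval -1.03 to -0.31) and -0.97 (interval -1.53 to -0.42). From SSC-like to differentiating-like cells Smc2 was at 0.70 (interval 0.46 to 0.94) and Ncaph at -0.71 (interval -1.27 to -0.16), so subunits of condensin I lay on opposite sides of 0 in that pair.

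To see how far each gene followed the others from cell to cell, the cells of a class were ordered by the summed level of the other 39 genes, and the level of the gene itself was compared between the top 15% of cells and the rest. In germ cells (39 of 263 in the top) the fold had a median of 2.28 over the 40 genes. In Sertoli-like cells (38 of 255) the median was 13.1 over the 25 genes with at least 50 UMIs, in stromal-like cells (28 of 185) 18.6 over 12 genes and in myoid-like cells (14 of 95) 16.8 over 7 genes. Of the 25 genes in Sertoli-like cells, 24 were at least 4-fold higher in the top cells, against 5 of 40 in germ cells. The germ cells hold deeper counts and more genes reach the limit there, and the part of this in the contrast was not tested. The cut at 15% also falls differently, since without thinning 124 of 263 germ cells and 41 of 255 Sertoli-like cells were high. The germ cells outside the top thus still included high cells, and the folds of the classes are not like for like. The fold was not computed over all genes, so these counts have no background.

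The contrast differed between genes. In germ cells the largest contrasts were for Aurka at 5.10-fold (interval 3.81 to 6.84), Plk1 at 4.67-fold (interval 3.39 to 6.43), Nusap1 at 4.50-fold (interval 3.55 to 5.70), Hmmr at 4.35-fold (interval 3.11 to 6.07) and Ube2c at 4.11-fold (interval 3.60 to 4.70). The smallest were for Cks1b at 1.08-fold (interval 0.938 to 1.24), Ckap5 at 1.24-fold (interval 0.899 to 1.69) and the condensin genes Smc2 at 1.32-fold (interval 1.09 to 1.59) and Ncapd2 at 1.41-fold (interval 1.09 to 1.81). In Sertoli-like cells Cks1b was again lowest, at 3.46-fold (interval 2.96 to 4.04), followed by Ckap5 at 4.07-fold (interval 2.88 to 5.75), Smc2 at 5.74-fold (interval 4.22 to 7.82) and Ncapd2 at 5.80-fold (interval 3.83 to 8.82). Hmmr was highest there, at 139.9-fold (interval 37.2 to 1180.4), with 64 of its 66 UMIs in the top cells, and Cenpe and Ube2c followed at 28.7-fold (interval 16.3 to 54.6) and 27.6-fold (interval 21.2 to 36.3). Thus 4 genes, Cks1b, Ckap5, Smc2 and Ncapd2, were the lowest in both pooled germ and Sertoli-like cells among the 25 shown. Within the germ stages the lowest gene differed. It was Ckap5 at 0.924-fold in SSC-like, Cks1b at 0.987-fold in progenitor-like and Aurkb at 0.967-fold in differentiating-like cells.

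**Figure D3:**
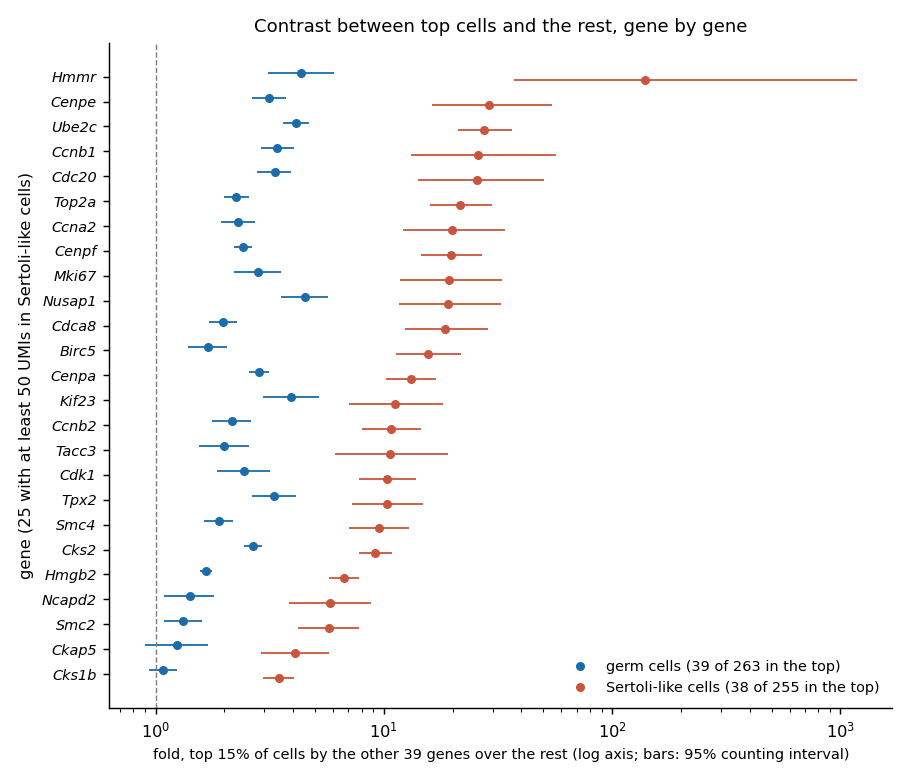
Fold of each gene between the top 15% of cells by the other 39 genes and the rest (horizontal log axis; points with exact 95% counting intervals as bars), for the 25 genes with at least 50 UMIs in Sertoli-like cells (vertical axis). Each gene has a larger fold in Sertoli-like cells (red) than in germ cells pooled over stages (blue), and Cks1b is lowest in both at 3.46 and 1.08.

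High cells of the somatic classes did not hold the 40 genes in the same proportions as high germ cells. Cells were taken as high here without thinning, which gave 124 germ, 41 Sertoli-like, 14 stromal-like and 7 myoid-like cells. These groups are unlike. High germ cells were cut from a continuous range and stood at 7517 CPM, over 3114 CPM in the other germ cells. High Sertoli-like, stromal-like and myoid-like cells stood at 10483, 10999.9 and 12232 CPM, over 939, 552 and 689 CPM in the rest. The part of this in the shares below was not tested. Of the UMIs of the 40 genes in Sertoli-like high cells, compared with those in germ high cells, Cdk1 made up 3.49% against 1.02%, a ratio of 3.42-fold (interval 2.77 to 4.23). Ube2c made up 8.76% against 3.93%, at 2.23-fold (interval 1.97 to 2.52), Ccnb2 3.81% against 1.80%, at 2.11-fold (interval 1.76 to 2.54), and Hmmr 1.36% against 0.621%, at 2.19-fold (interval 1.59 to 2.99). Lower shares were held by Ccnb1, with 1.25% against 2.52%, Kif2c, with 0.272% against 0.738%, and Ndc80, with 0.230% against 0.648%.

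Stromal-like high cells shared the larger part of Cdk1, at 3.16% against 1.02%, and of Hmmr, at 1.52% against 0.621%. Birc5 made up 7.38% against 1.98%, at 3.74-fold (interval 3.03 to 4.58), Nuf2 1.41% against 0.436% and Nusap1 2.69% against 1.31%. Smaller parts went to Cenpf, with 3.51% against 9.13%, Ccnb1, with 1.05% against 2.52%, Cenpe, with 0.996% against 2.30%, and to Kif11, Bub1 and Bub1b. In the 7 myoid-like high cells Birc5 made up 4.35% against 1.98%, Nusap1 2.68% against 1.31% and Anln 1.67% against 0.558%, and Cenpf 4.24% against 9.13%, Cdca8 1.67% against 3.41% and Ccna2 1.23% against 2.69%. The genes named for the 3 somatic classes were picked for a share at least 2-fold different with an interval that excludes 1. Their intervals are therefore no further support. Only 14 stromal-like and 7 myoid-like cells carry the ratios of those classes.

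By group, the cyclin and CDK1 genes made up 26.9% (interval 25.7 to 28.2) of the sum in Sertoli-like high cells against 20.3% (19.8 to 20.9) in germ high cells. They made up 20.9% in stromal-like and 20.96% in myoid-like high cells, and 21.5%, 24.8% and 17.4% in high cells of the SSC-like, progenitor-like and differentiating-like stages, so the germ stages differed among themselves by about as much. The partners of the anaphase-promoting complex made up 10.4% (interval 9.52 to 11.3) in Sertoli-like high cells against 6.33% (5.99 to 6.69) in germ high cells, with 5.87% to 6.70% in the germ stages. Centromere genes made up 14.1% (interval 13.1 to 15.1), 10.3% (interval 8.85 to 11.8) and 13.5% (interval 11.3 to 15.9) in Sertoli-like, stromal-like and myoid-like high cells, against 18.9% (18.3 to 19.4) in germ cells, so they took a smaller part in all 3 somatic classes. Chromosome structure made up 24.8% (interval 23.6 to 26.05) in Sertoli-like, 36.97% (interval 34.7 to 39.3) in stromal-like and 37.7% (interval 34.5 to 40.9) in myoid-like high cells, against 33.8% (33.1 to 34.5) in germ cells, where the stages ran from 28.5% to 37.1%. Among cells under the limit, cyclin and CDK1 genes made up 39.9%, 42.7% and 34.5% in Sertoli-like, stromal-like and myoid-like cells. Germ cells were at 24.2%. Centromere genes made up 7.87%, 5.78% and 7.46% in the same order, against 16.9% in germ cells. For Sertoli-like cells, the anaphase-promoting complex partners were at 4.34% (interval 3.43 to 5.41) against 3.68% (3.29 to 4.10), and these intervals overlap. Chromosome structure was at 29.3% (27.1 to 31.5) against 34.3% (33.3 to 35.3), where the germ stages ran from 27.1% to 41.8%. The differences of Sertoli-like cells in cyclin and CDK1 genes and in centromere genes were thus not limited to high cells.

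**Figure D4:**
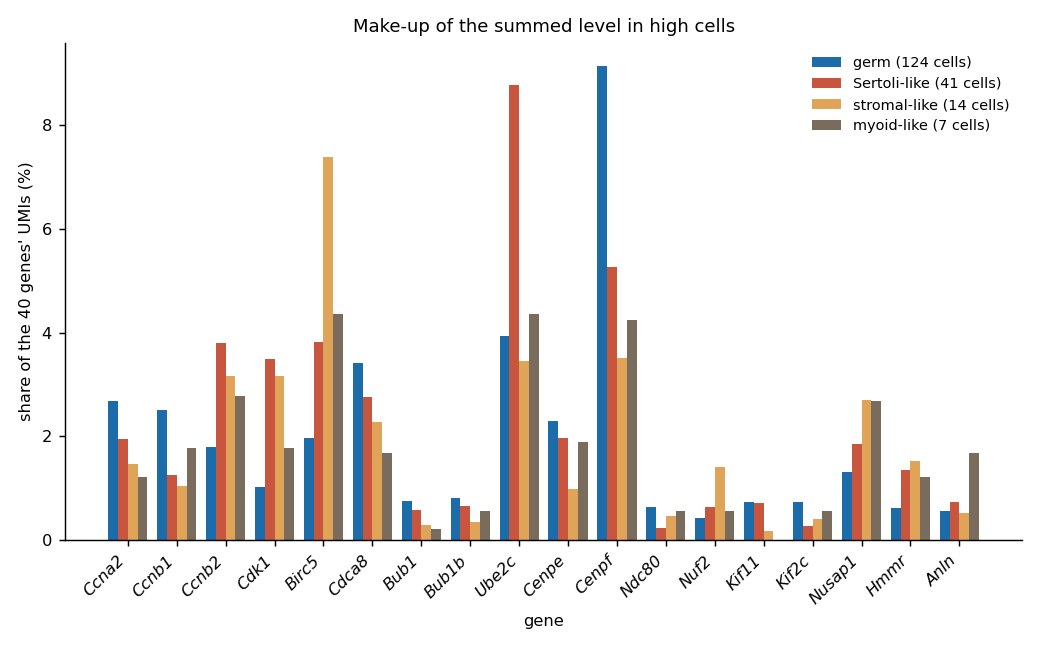
Share of the summed UMIs of the 40 genes held by each gene (vertical axis, percent) in high cells of the germ, Sertoli-like, stromal-like and myoid-like classes (bars), for the 18 genes whose share differed at least 2-fold from germ cells in some class with an interval excluding 1 (horizontal axis). Ube2c is tallest in Sertoli-like cells at 8.76%, Birc5 in stromal-like cells at 7.38% and Cenpf in germ cells at 9.13%.

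S phase genes from a fixed list of 50 were set beside the 40. The list holds genes of DNA replication and others, such as that for the chromatin remodeler Hells. The summed level of the S phase genes was 5650.2, 3724 and 6349 CPM in the SSC-like, progenitor-like and differentiating-like stages, and 1655, 1312 and 1285 CPM in Sertoli-like, stromal-like and myoid-like cells. For Sertoli-like over germ cells the median log2 ratio of S phase genes was -1.70, against -0.86 for the 40, while in stromal-like and myoid-like cells it was -2.20 and -2.11, against -1.86 and -1.73. With 0.5% of UMIs as the limit for both lists, 24 of 89 SSC-like cells passed both, 20 only that of the 40, 22 only that of S phase and 23 neither. In progenitor-like cells the counts were 6, 14, 10 and 58 of 88, and in differentiating-like cells 44, 16, 26 and 0 of 86, so no differentiating-like cell was low in both, which allows a share of up to 3.49%. In Sertoli-like cells they were 4, 37, 6 and 208 of 255, in stromal-like cells 5, 9, 3 and 168 of 185 and in myoid-like cells 1, 6, 4 and 84 of 95. The limit was set for the 40 genes and falls differently within the S phase levels of each class. S phase genes stood at 2731 CPM in Sertoli-like cells high in the 40. In germ cells not high in the 40 they stood at 4581 CPM. The counts of the classes are therefore not like for like.

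**Figure D5:**
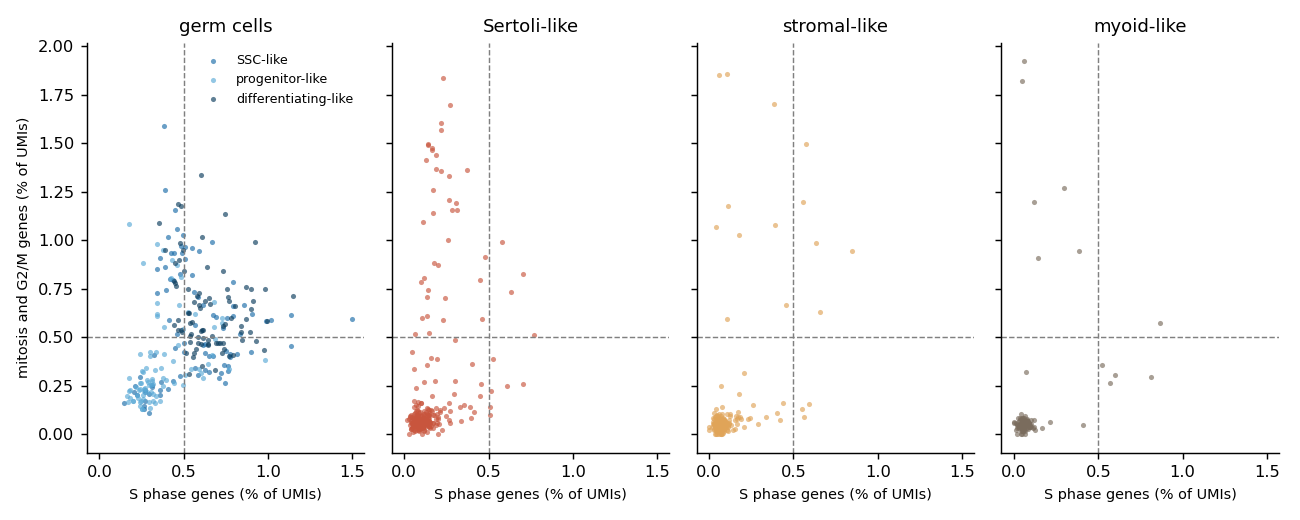
UMIs from S phase genes (horizontal axis) and from the 40 mitosis and G2/M genes (vertical axis), both as a percent of the UMIs of the cell, with 1 point per cell in germ cells (coloured by stage), Sertoli-like, stromal-like and myoid-like cells. The dashed lines mark 0.5%, a limit set for the 40 genes that falls differently within the S phase levels of each class. By it, 37 Sertoli-like cells pass for the 40 genes alone and 4 pass both, against 50 and 74 of 263 germ cells.

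Another 61 genes of G2 and mitosis, fixed as a list and apart from the 40, were counted in the same way. Like the 40 and the S phase genes, they were chosen with earlier results of these data known, so the lists are not independent. For progenitor-like over SSC-like cells 7 of 48 were at least 2-fold lower and 0 higher, with a median log2 ratio of -0.45, and for S phase genes the counts were 6 and 0 of 46, where 3.43% of all genes were at least 2-fold lower. For differentiating-like over progenitor-like cells 14 of 45 of the further G2 and mitosis genes and 17 of 49 S phase genes were at least 2-fold higher, with 0 and 1 lower, against 8.45% and 5.14% of all genes. For differentiating-like over SSC-like cells 2 of 50 and 4 of 49 were higher and 0 and 1 lower, against 6.88% and 6.02% of all genes. For Sertoli-like over germ cells 22 of 56 were lower and 4 higher, while 40 of 49 S phase genes were lower and 0 higher, against 25.1% and 22.3% of all genes. For stromal-like over germ cells 41 of 51 and 42 of 49 were lower and 0 and 0 higher, against 36.6% and 17.1% of all genes. For myoid-like over germ cells 37 of 51 and 43 of 49 were lower and 1 and 0 higher, against 41.6% and 13.5%.

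Of the further G2 and mitosis genes, the 5 with most UMIs were Bub3, Zwint, Cdca3, Hjurp and Pttg1. Cdca3, which acts in mitotic entry, stood at 150.3 CPM in SSC-like cells, 76.6 in progenitor-like cells and 160.5 in differentiating-like cells, and at 66.6 in Sertoli-like, 36.2 in stromal-like and 54.4 in myoid-like cells. Pttg1, which encodes securin, the inhibitor of chromatid separation, stood at 69.2 CPM in SSC-like cells, 78.3 in progenitor-like cells and 84.6 in differentiating-like cells, and at 76.7 in Sertoli-like, 65.1 in stromal-like and 87.5 in myoid-like cells. Bub3, Zwint and Hjurp, genes of the checkpoint, kinetochore and centromere, stood at 125, 118 and 98.6 CPM in all germ cells and at 129, 128 and 64.03 CPM in Sertoli-like cells. Among S phase genes the 5 were Hells, Nasp, Dut, Slbp and Tipin. Hells, a chromatin remodeler, stood at 658 CPM in germ and 51.8 CPM in Sertoli-like cells, Nasp, a histone chaperone, at 356 and 76.7 CPM, and Dut, Slbp and Tipin at 266, 268 and 253 CPM in germ and 227, 128 and 113 CPM in Sertoli-like cells.

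Over the 263 germ cells, the genes outside the 40 whose log-normalized counts had the highest Pearson correlation with their sum, among 9413 genes found in at least 10% of the cells, were Ube2s (0.71), Cdca3 (0.59), Tuba3a (0.59), Tubb4b (0.56), Prc1 (0.55), Tuba3b (0.54), Hn1 (0.54), Usp26 (0.52), Ptma (0.51) and Nasp (0.50). Ube2s is the enzyme that extends ubiquitin chains for the anaphase-promoting complex, and Tuba3a and Tuba3b are near-identical tubulin genes whose reads may be hard to tell apart. Over the 255 Sertoli-like cells they were Lockd (0.77), Prc1 (0.76), Cdca3 (0.74), Knstrn (0.70), Pbk (0.69), Cenpw (0.67), Sgol1 (0.67), Incenp (0.66), Stmn1 (0.65) and Casc5 (0.65), of 7543 genes. Prc1 and Cdca3 stood in both lists. The median over all genes ranked was 0.01 and 0.02. The cells share 1 library and the depth of a cell enters both measures, so these values are a description. The germ values also pool stages with unlike summed levels, so a gene that differs between stages can rank high. No ranking was made within a stage.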

How the data were processed

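The measurements are UMI counts per gene and cell barcode from 1 library on the Chromium platform with version 2 chemistry. The authors deposited these counts as a matrix without normalization, and the submitters' processing notes name Cell Ranger 2.1.0, Seurat and the build mm10. The matrix held 970 barcodes with 2655 to 44915 UMIs each. Barcodes with fewer than 500 genes, or with 10% or more of UMIs from mitochondrial genes, were removed, as were 4 that scrublet (scanpy 1.11.5, with an expected rate of 0.01) called doublets. Seurat 5.3.0 in R 4.3.3 log-normalized each cell to 10000 UMIs, variable genes were chosen by mean.var.plot, the 40 genes and the lists of further G2 and S phase genes were left out of them, and clusters were drawn from 14 principal components (resolution 0.5). Germ cells were clustered again. Clusters were named from fixed marker lists, and left unnamed where more of their 10 leading genes were markers of another class than of their own, with 1 T cell marker not found in the table. Of the 4 members without a promoter none was looked up elsewhere.

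Levels were summed UMIs per 1000000 UMIs of a class with exact Poisson intervals, shares had exact binomial (Clopper-Pearson) intervals and ratios exact conditional binomial intervals, computed with scipy 1.17.1. UMIs of cells are not independent samples of mice, so intervals cover counting error only. A gene was counted as 2-fold changed in a pair only with at least 50 UMIs in it. The genes named were all 40, those whose share of the summed level in high cells differed at least 2-fold, the 10 most correlated other genes and the 5 with most UMIs of each further list. The 40 genes and all lists were chosen with earlier results of these data known. In the GENCODE annotation of GRCm38, 11 of the 40 overlap another gene on their strand, none of them protein-coding. The interval calculation was run on simulated independent counts, which is what the intervals assume. The simulation did not include the uneven spread of UMIs over cells. Alternatives covered the filters, variable genes, resolution, doublets, the hemoglobin-rich barcode, the limit for high cells, thinning, leaving out Hmgb2, and the way of averaging.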

Additional observations from a re-analysis of the deposited data

How the results depend on the processing

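No paired analysis was possible because there was 1 library and no test. Of 78 shares of high cells recomputed under the alternatives, 64 stayed within their counting interval and 14 moved. Of 67 log2 ratios of the summed level, 34 stayed within it and 33 moved, and none changed sign. The counting intervals are narrow, and the cause of each move was not tested. Some of these values could not move. A new germ cell resolution redrew only the germ stages, so somatic shares and somatic ratios to all germ cells stayed fixed there. The alternatives without the hemoglobin-rich barcode and with at least 1000 genes kept the same 919 cells, so they count as separate alternatives without being so.

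A limit of 10 of 5000 UMIs gave shares of 89.7, 80.5 and 100% in the SSC-like, progenitor-like and differentiating-like stages, and a limit of 50 gave 11.5, 3.45 and 8.33%, with 8.94% in Sertoli-like cells. Without Hmgb2, the gene with most UMIs, SSC-like cells were at 37.9% and differentiating-like cells at 41.7%. Progenitor-like cells were at 3.39% without the hemoglobin-rich barcode or with at least 1000 genes per cell. With a mitochondrial limit of 5%, Sertoli-like, stromal-like and myoid-like cells were at 29.5, 1.72 and 17.1%.

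The log2 ratios that moved were as follows. Without Hmgb2 they were differentiating-like over SSC-like 0.05, differentiating-like over progenitor-like 0.72, Sertoli-like over germ -0.73, myoid-like over germ -1.65. As a mean over cells they were progenitor-like over SSC-like -0.58, differentiating-like over SSC-like 0.21, Sertoli-like over germ -1.06, stromal-like over germ -1.89, myoid-like over germ -1.81, and as a median over genes differentiating-like over progenitor-like 0.89, stromal-like over germ -1.86, myoid-like over germ -1.73. With all variable genes they were differentiating-like over SSC-like 0.03, and with 2000 variable genes by vst progenitor-like over SSC-like -0.37, differentiating-like over SSC-like 0.20, differentiating-like over progenitor-like 0.57, stromal-like over germ -1.85, myoid-like over germ -1.32. Without the hemoglobin-rich barcode, and equally with at least 1000 genes, they were progenitor-like over SSC-like -1.22, differentiating-like over progenitor-like 1.33. At a germ cell resolution of 1.2 they were progenitor-like over SSC-like -0.21, differentiating-like over SSC-like 0.26, differentiating-like over progenitor-like 0.46. Without a mitochondrial limit they were progenitor-like over SSC-like -0.87, differentiating-like over progenitor-like 1.01, with a limit of 5% Sertoli-like over germ -0.79, stromal-like over germ -3.08, myoid-like over germ -1.08, and with doublets kept progenitor-like over SSC-like -0.81, differentiating-like over progenitor-like 0.95, stromal-like over germ -1.68. Under the limit of 5%, 49 of the 67 germ cells came from the unnamed cluster, so those ratios have largely another denominator. Counting the unnamed cluster as germ cells, an alternative chosen after seeing the data, moved none of the 3 somatic ratios. At a germ cell resolution of 0.3, and with a mitochondrial limit of 5%, SSC-like and progenitor-like cells were not separated, and with all variable genes no cluster was named progenitor-like, so these gave no values for progenitor-like cells. The 40 genes had 1366 UMIs in the 95 myoid-like cells, 1195 in the 35 macrophage-like cells and 467 in the unnamed cluster of 26 cells, which limits the precision there.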

Other observations

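Outside the 6 classes, the 40 genes summed to 2316 CPM (interval 2186 to 2451) in 35 macrophage-like cells and 2829.6 CPM (2579 to 3098) in a cluster of 26 cells that was left unnamed once its leading genes were seen. Genes of natural killer cells (Ncr1, Klrd1) and of pericytes (Rgs5, Higd1b) stood among the 10 leading genes of that cluster beside the T cell gene Cd3g, with T cell markers at 1321 CPM and myoid markers at 3951 CPM. As in the other somatic classes, most of these cells were low, with 25 of 35 and 14 of 26 under 0.1% of UMIs and 5 and 3 at 0.5% or more without thinning. Hmgb2 stood at 1103 CPM in this cluster and 386 CPM in macrophage-like cells, and Mki67 at 103 and 77.5 CPM.

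In stromal-like cells the genes outside the 40 most correlated with their sum over 185 cells were Cenpm (0.74), Lockd (0.71), Cdca3 (0.69) and Stmn1 (0.66), and in the 95 myoid-like cells Stmn1 (0.80), Cdca3 (0.78), Lockd (0.75) and 2810417H13Rik (0.70). These 2 classes were added to the lists for germ and Sertoli-like cells after the values were seen. Promoters of the further G2 and mitosis genes held TTTGAA in 26 of 41 and CCAAT in 29 of 41.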
